A study of Mus musculus with 18 samples.

Results

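The circadian clock genes Per1, Per2, Per3, Cry1, Cry2, Nr1d1, Nr1d2, Dbp, Tef and Ciart were followed across pancreatic islets of obese and lean mice. The 10 genes were taken by name, each through the transcript cluster of highest mean among those annotated to that gene alone. This left 9 genes, among 22180 genes with a cluster of their own and 15526 genes bright enough to be tested. Per2 shared its cluster with 9830107B12Rik and was not analysed here, and Tef was the only one of the 9 with 2 clusters.

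Total RNA of handpicked islets was hybridised to Affymetrix arrays, and signals are given as log2 values, on which 1 unit is a factor of 2. The mice were db/db and lean control mice of strain C57BL/KsJ and ob/ob and lean control mice of strain C57BL/6J, each at 6 and 16 weeks of age, which gave 8 groups of 2 arrays in the larger of the deposited tables. A smaller table held 1 array of db/db islets and 1 of lean KsJ islets, both at 16 weeks, and was read by its values alone. The db/db mutation disrupts the leptin receptor and the ob/ob mutation disrupts leptin itself, in the whole animal, and the series title calls one model diabetes-prone and the other diabetes-resistant. The labels say neither at what time of day islets were collected, nor the sex of the mice, nor how many animals gave each RNA sample. The time of collection and the genotype therefore cannot be told apart for genes that cycle over the day, and the p-values measure only the spread between arrays.

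The mammalian clock is a transcriptional feedback loop that runs in most cells, islet endocrine cells included. The heterodimer of BMAL1 (gene Arntl) with CLOCK or NPAS2 activates genes through the E-box, among them the Per, Cry, Nr1d, Dbp, Tef and Ciart genes, and PER, CRY and CIART proteins repress that activation. The Nr1d products REV-ERB alpha and beta repress Arntl, Npas2 and Nfil3 through the ROR response element, while DBP, TEF and HLF activate, and NFIL3 represses, genes carrying a D-box. In many tissues Dbp, Nr1d1, Nr1d2 and Per3 messages peak in one part of the day, Arntl and Npas2 messages in the opposite part, and Cry1 later than the other repressors.

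The E-box and D-box letters lie close to the transcript starts of several of these genes. The following stretches, from RefSeq on build GRCm38.p6, run 5′ to 3′ on the gene's strand and end at or shortly before the annotated start, and they are shown because they hold matches within 250 bases before it. Capitals mark the D-box in Per3, at chr4:151044708-151044915 on the minus strand, and the E-box in Cry1, at chr10:85185055-85185304 on the minus strand, Tef, at chr15:81802423-81802672 on the plus strand, and Ciart, at chr3:95882258-95882478 on the minus strand.
Per3: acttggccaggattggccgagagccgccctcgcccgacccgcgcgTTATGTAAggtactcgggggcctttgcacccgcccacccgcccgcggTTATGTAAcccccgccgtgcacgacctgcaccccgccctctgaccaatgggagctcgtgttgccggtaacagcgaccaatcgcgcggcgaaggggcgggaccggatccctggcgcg
Cry1: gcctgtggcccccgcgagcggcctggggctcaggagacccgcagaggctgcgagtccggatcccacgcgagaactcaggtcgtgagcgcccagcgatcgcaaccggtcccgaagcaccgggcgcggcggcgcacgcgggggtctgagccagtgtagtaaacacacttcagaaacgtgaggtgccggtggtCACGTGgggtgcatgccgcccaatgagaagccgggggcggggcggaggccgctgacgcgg
Tef: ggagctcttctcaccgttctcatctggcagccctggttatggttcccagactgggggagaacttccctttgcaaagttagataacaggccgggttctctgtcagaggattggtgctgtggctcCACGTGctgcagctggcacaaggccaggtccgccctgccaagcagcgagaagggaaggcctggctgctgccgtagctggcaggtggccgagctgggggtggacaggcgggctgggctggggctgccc
Ciart: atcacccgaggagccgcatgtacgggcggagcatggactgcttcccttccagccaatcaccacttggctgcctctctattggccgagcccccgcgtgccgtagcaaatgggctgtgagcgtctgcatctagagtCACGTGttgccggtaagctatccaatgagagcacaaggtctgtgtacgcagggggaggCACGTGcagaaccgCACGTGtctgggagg

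The E-box was searched as CACGTG, which reads the same on both strands, and the D-box as TTACATAA, TTACGTAA, TTATATAA or TTATGTAA on both strands. Among the 9 measured genes, 4 held an E-box in the 250 bases before a start. By window this was 5 of their 11, against 6.02% of all 32851 RefSeq windows. Ciart held it 3 times, starting 116, 58 and 44 bases before the start. Per1, Cry1 and Tef held it once in their first windows, 166, 60 and 127 bases before. A second annotated start of Tef had one 138 bases before it, and a second annotated start of Per1 had none. Per3 alone of the 9 held the D-box, at 205 and 158 bases before its start. This was 1 of the 11 windows, against 1.43% of all windows. No match was found in the 9 genes for the ROR response element or for the cAMP response element TGACGTCA, which 0.332% and 1.55% of windows held. The motifs were not found in these windows of Dbp, Nr1d1, Nr1d2 and Cry2, and a match is a description of letters only. The map of motifs plots these positions.

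**Figure D1:**
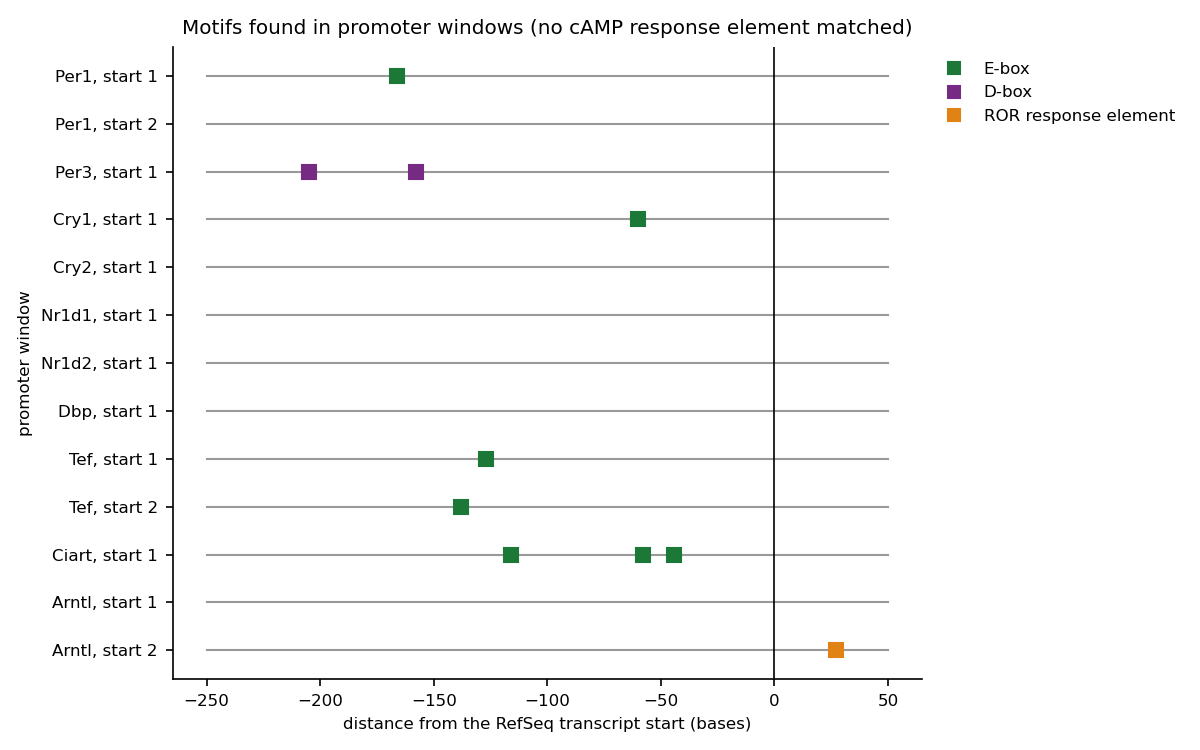
Positions of motif matches in the RefSeq promoter windows of the clock genes and of Arntl, with the distance from the transcript start in bases on the horizontal axis and 1 line per annotated start. The 3 E-boxes of Ciart lie 116, 58 and 44 bases before its start, and the 2 D-boxes of Per3 lie 205 and 158 bases before.

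The arrays carried islet RNA with a varying share from other tissue. The mean of 8 islet endocrine markers lay between 11.95 and 12.49 on the 16 arrays, while the mean of 6 acinar markers ranged over 8.56 to 13.20 and that of 9 enterocyte markers over 4.25 to 11.00. At 16 weeks the acinar mean was 11.59 and 12.31 on the db/db arrays and 11.16 and 13.20 on the lean KsJ arrays, and it was 10.88 and 10.45 on the ob/ob arrays and 9.78 and 9.08 on the lean 6J arrays. In the 16-week KsJ comparison the enterocyte mean was 6.71 and 9.43 on the db/db arrays and 4.32 and 6.30 on the lean arrays, and the mean of 5 stellate markers was 6.74 and 7.74 on the db/db arrays and 5.37 and 5.29 on the lean arrays, so both moved with genotype there. Enterocyte markers stood at 4.66 and 4.53 in 6-week ob/ob islets, against 4.54 and 11.00 in lean 6J islets. The Y-linked gene Uty was at 7.25 to 7.86 on both 6-week ob/ob arrays, 1 of 2 arrays of 6-week lean 6J islets and 1 of 2 arrays of lean KsJ islets at each age, and at 2.17 to 3.60 on the others. The 4 arrays of 16-week 6J mice, ob/ob and lean, were all among those with low Uty. In such bulk RNA, fewer cells of a type and less RNA per cell cannot be told apart. None of the 9 clock genes passed in any of the 14 comparisons in limma fits that took in both marker means, acinar and enterocyte, or the level of Xist as covariates. None passed in the fit without covariates either, so these counts cannot show whether marker levels or sex bear on the clock genes. Another fit left out the 3 arrays whose acinar or enterocyte means stood apart. The part of the stellate, macrophage and endothelial markers in the clock results was not tested.

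In the 16-week comparison of ob/ob with lean 6J islets, 7 of the 9 clock genes lay lower on both ob/ob arrays than on both lean arrays, where 33.3% of all genes tested did, and Cry1 lay higher on both, where 28.2% of all genes did. Dbp, Per3, Nr1d1 and Nr1d2 had the largest differences, 2.85 to 3.72-fold. Their adjusted p in limma missed 0.05 (Benjamini-Hochberg over all 15526 genes). Of the 9 genes, 0 passed it, where 0.0708% of all genes did, and 6 had an unadjusted p under 0.05, where 16.6% did. In limma fits of these 2 groups alone and in fits with array weights, 5 of the 9 passed, beside 1293 and 2969 genes in all. With acinar and enterocyte marker means as covariates, the log2 changes were -1.92 for Dbp, -1.63 for Nr1d1, -1.49 for Nr1d2, -1.19 for Per3 and 1.02 for Cry1.

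Dbp, at chr7:45705100-45710203 on GRCm38.p6, encodes an activator of D-box genes and is among the most strongly cycling clock transcripts of many tissues. In 16-week islets its log2 signals were 6.88 and 6.77 in ob/ob mice, against 8.39 and 9.05 in lean 6J mice. The ob/ob arrays lay more than 1 unit below the lower lean array, a log2 change of -1.90 ± 0.44 (SE, n = 2 each; limma adjusted p = 0.0871), or 3.72-fold lower. In 6-week islets the signals were 7.53 and 8.97 in ob/ob mice, against 9.29 and 8.75 in lean 6J mice. The second ob/ob array lay between the lean arrays, so the groups overlapped. In db/db mice Dbp had 8.24 and 8.29 at 6 weeks, against 9.23 and 9.58 in lean KsJ mice, and in 16-week islets 7.03 and 7.97 in db/db mice, against 8.71 and 8.85 in lean KsJ mice. Both db/db arrays lay below both lean arrays at each age. The log2 changes were -1.13 ± 0.44 at 6 weeks (limma adjusted p = 0.559) and -1.28 ± 0.44 at 16 weeks (limma adjusted p = 0.106), and the second was -0.81 without the first db/db array. Across all 8 groups the mean of Dbp was lowest in 16-week ob/ob islets, at 6.82 ± 0.08 (SD, n = 2), followed by 16-week db/db islets, at 7.50 ± 0.67, and highest in 6-week lean KsJ islets, at 9.40 ± 0.25. The 2 lowest groups did not overlap, and the next in order, 6-week ob/ob islets at 8.25 ± 1.02 and 6-week db/db islets at 8.27 ± 0.04, did.

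Tef, the second D-box activator of the family, was a dim signal. It read 4.93 and 4.89 in 6-week db/db islets, against 5.25 and 5.67 in lean KsJ islets, and 4.44 and 4.35 in 16-week db/db islets, against 5.18 and 5.32 in lean KsJ islets. The db/db arrays were below the lean ones at both ages, with log2 changes of -0.55 ± 0.29 (limma adjusted p = 0.635) and -0.85 ± 0.29 (limma adjusted p = 0.106), and the first was -0.34 without the second lean array. Its 16-week signals were 4.36 and 4.39 in ob/ob mice, against 4.68 and 5.26 in lean 6J mice, a log2 change of -0.59 ± 0.29 (limma adjusted p = 0.339) with no overlap, or -0.30 without the second lean array. Younger islets, of 6 weeks, read 4.14 and 4.68 in ob/ob mice, against 5.47 and 4.67 in lean 6J mice, and the groups overlapped. With the mean of both Tef clusters in place of the brighter one, the changes were -0.15 at 6 weeks in db/db and -0.29 at 16 weeks in ob/ob islets.

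Nr1d1, at chr11:98767932-98775377, encodes REV-ERB alpha, a repressor of Arntl. At 16 weeks it read 8.11 and 7.45 in ob/ob mice, against 9.23 and 9.47 in lean 6J mice. Both ob/ob arrays lay more than 1 unit below both lean arrays, a log2 change of -1.57 ± 0.37 (limma adjusted p = 0.0964) or 2.96-fold lower. Its 6-week signals were 8.15 and 9.43 in ob/ob mice, against 9.47 and 9.75 in lean 6J mice, which did not overlap, a log2 change of -0.82 ± 0.37 (limma adjusted p = 0.791). That difference rested on the first ob/ob array, without which it was -0.18. At 6 weeks it read 8.52 and 8.95 in db/db mice, against 9.08 and 9.40 in lean KsJ mice, a log2 change of -0.50 ± 0.37 (limma adjusted p = 0.740), or -0.28 without the first db/db array. Its 16-week signals were 8.10 and 8.51 in db/db mice, against 8.50 and 8.79 in lean KsJ mice, and the arrays overlapped.

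Nr1d2, at chr14:18204056-18239106, which encodes REV-ERB beta, had the smallest p of the 9 genes in 16-week ob/ob islets. It read 7.09 and 6.91 there, against 8.48 and 8.54 in lean 6J islets, with the 2 groups far apart and each tight. The log2 change was -1.51 ± 0.27 (limma adjusted p = 0.0606), or 2.85-fold lower. It passed with a filter at the 50th percentile of brightness (limma adjusted p = 0.0477) and with a robust, intensity-dependent prior (limma adjusted p = 0.0432). Younger islets, of 6 weeks, read 7.31 and 8.25 in ob/ob mice, against 8.68 and 8.23 in lean 6J mice, where the second ob/ob array lay just above the lower lean one. In db/db mice it read 8.23 and 7.99 at 6 weeks, against 8.66 and 8.83 in lean KsJ mice, and at 16 weeks 7.84 and 8.03 in db/db mice, against 8.30 and 8.43 in lean KsJ mice. Both db/db pairs lay below their lean pairs, with log2 changes of -0.63 ± 0.27 (limma adjusted p = 0.573) and -0.43 ± 0.27 (limma adjusted p = 0.347).

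**Figure D2:**
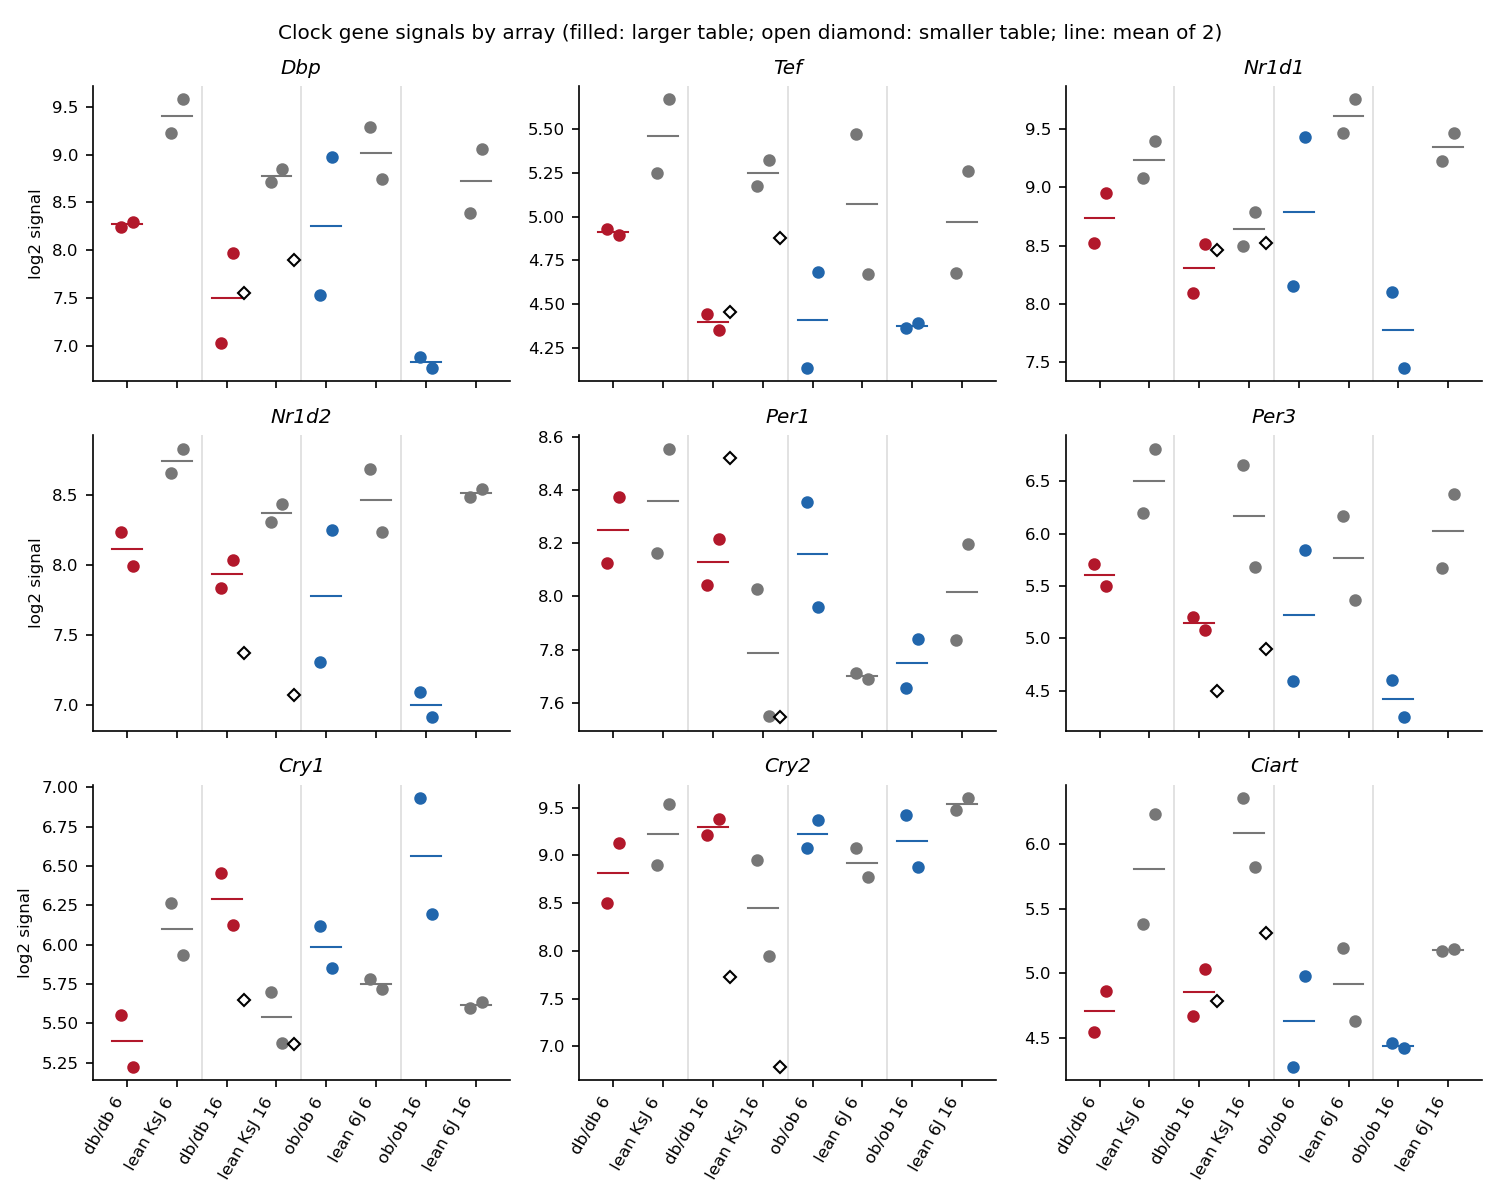
Log2 signal of the 9 measured clock genes on each array (vertical axis, log2 units), with groups of genotype and age in weeks on the horizontal axis, filled points for the larger table, lines for the mean of 2 arrays and open diamonds for the 2 arrays of the smaller table. By group mean in the larger table, Dbp, Nr1d1, Nr1d2 and Per3 lie lowest in 16-week ob/ob islets, while Cry1 lies highest there.

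Per3, a period gene that is dispensable for the central clock in mice, lay lower on both obese arrays in 3 of the 4 comparisons. At 16 weeks it read 4.60 and 4.25 in ob/ob mice, against 5.68 and 6.38 in lean 6J mice, a log2 change of -1.60 ± 0.46 (limma adjusted p = 0.137) or 3.04-fold lower. The higher ob/ob array lay more than 1 unit below the lower lean array. In db/db mice it read 5.71 and 5.50 at 6 weeks, against 6.20 and 6.81 in lean KsJ mice, and at 16 weeks 5.21 and 5.08 in db/db mice, against 6.66 and 5.68 in lean KsJ mice. The log2 changes were -0.90 ± 0.46 (limma adjusted p = 0.624) and -1.02 ± 0.46 (limma adjusted p = 0.194), the first being -0.60 without the second lean array and the second -0.53 without the first lean array. Its 6-week signals were 4.59 and 5.85 in ob/ob mice, against 6.17 and 5.37 in lean 6J mice, and the groups overlapped.

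Per1, the period gene that responds quickly to light, hormones and cAMP signalling in many cells, had no common direction. Its 16-week signals were 8.04 and 8.22 in db/db mice, against 8.03 and 7.55 in lean KsJ mice, and in 6-week islets it read 8.35 and 7.96 in ob/ob mice, against 7.71 and 7.69 in lean 6J mice. In both, the obese arrays lay above the lean ones, by 0.34 ± 0.23 (limma adjusted p = 0.382) and 0.46 ± 0.23 (limma adjusted p = 0.791). The 16-week db/db difference was 0.10 without the second lean array, and the 6-week ob/ob difference was 0.26 without the first ob/ob array. At 6 weeks it read 8.13 and 8.37 in db/db mice, against 8.16 and 8.56 in lean KsJ mice, and in 16-week islets 7.66 and 7.84 in ob/ob mice, against 7.83 and 8.20 in lean 6J mice. Both of these pairs of groups overlapped.

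Cry1, whose product is a strong repressor of CLOCK and BMAL1, lay higher in 16-week obese islets of both models. It read 6.93 and 6.19 in ob/ob islets, against 5.60 and 5.64 in lean 6J islets, and 6.45 and 6.12 in db/db islets, against 5.70 and 5.38 in lean KsJ islets. In both models each obese array lay above both lean arrays. The log2 changes were 0.94 ± 0.25 in ob/ob (limma adjusted p = 0.125) and 0.75 ± 0.25 in db/db islets (limma adjusted p = 0.104), and the first was 0.58 without the first ob/ob array. At 6 weeks it read 5.56 and 5.23 in db/db islets, against 6.27 and 5.93 in lean KsJ islets, where the db/db arrays were the lower ones, with a log2 change of -0.71 ± 0.25 (limma adjusted p = 0.539). In 6-week ob/ob islets it read 6.12 and 5.85, against 5.78 and 5.72 in lean 6J islets, a small gap with no overlap. That gap of 0.24 was 0.10 without the first ob/ob array. The obesity effect on Cry1 in KsJ mice was 1.46 ± 0.36 higher at 16 than at 6 weeks, with an unadjusted p of 0.00181 and a limma adjusted p of 0.361.

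Cry2, which encodes the other cryptochrome repressor, had no common direction either. At 16 weeks it read 9.21 and 9.38 in db/db mice, against 8.96 and 7.94 in lean KsJ mice, a log2 change of 0.85 ± 0.35 (limma adjusted p = 0.165) with no overlap. The second lean array, which also had the highest acinar markers, was 1.01 below its partner, and without it the change was 0.34. In 16-week islets of the other model it read 9.43 and 8.87 in ob/ob mice, against 9.47 and 9.60 in lean 6J mice, lower on both arrays with a log2 change of -0.38 ± 0.35 (limma adjusted p = 0.636), or -0.11 without the second ob/ob array. Younger islets, of 6 weeks, read 9.08 and 9.37 in ob/ob mice, against 9.07 and 8.78 in lean 6J mice, barely apart, with a log2 change of 0.30 ± 0.35 (limma adjusted p = 0.903), or 0.15 without the second lean array. Its 6-week signals were 8.50 and 9.13 in db/db mice, against 8.90 and 9.54 in lean KsJ mice, which overlapped.

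Ciart encodes CHRONO, a repressor of CLOCK and BMAL1, and had the smallest p of the 9 genes in db/db islets at both ages. Its 16-week signals were 4.67 and 5.03 in db/db mice, against 6.35 and 5.82 in lean KsJ mice, a log2 change of -1.23 ± 0.33 (limma adjusted p = 0.0524). At 6 weeks it read 4.55 and 4.86 in db/db mice, against 5.38 and 6.23 in lean KsJ mice, a log2 change of -1.10 ± 0.33 (limma adjusted p = 0.516), or -0.68 without the second lean array. The db/db arrays lay below the lean ones at both ages. The 16-week difference passed after quantile normalization (limma adjusted p = 0.0388) and in 3 other fits. At 16 weeks it read 4.46 and 4.42 in ob/ob mice, against 5.17 and 5.19 in lean 6J mice, lower on both arrays with a log2 change of -0.74 ± 0.33 (limma adjusted p = 0.291). Younger islets, of 6 weeks, read 4.28 and 4.98 in ob/ob mice, against 5.20 and 4.63 in lean 6J mice, and the groups overlapped.

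Read by comparison, 7 of the 9 genes lay lower on both 6-week db/db arrays than on both lean KsJ arrays, where 27.9% of all genes did, and 0 lay higher, where 21.9% did. All 9 had a log2 change below 0, where 53% of all genes did, with a median of -0.63, against -0.02 over all genes tested. In limma 0 of the 9 passed, where 0.0258% of all genes did, and 4 had an unadjusted p under 0.05, where 8.52% did. The count stayed at 0 in all 15 alternative fits. In 16-week db/db islets 5 of the 9 lay lower, where 10.4% of all genes did, and 3 lay higher, where 32.8% did. The median of the 9 was -0.43, against 0.18 over all genes, and in limma 0 passed, where 5.8% of all genes did, while 6 had an unadjusted p under 0.05, where 24.5% did. In 6 of 16 alternative fits 1 or 2 of the 9 passed, being Ciart, Cry1 or Cry2.

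In 6-week ob/ob islets 1 of the 9 genes, Nr1d1, lay lower on both arrays, where 16.8% of all genes did, and Per1, Cry1 and Cry2 lay higher, where 19.9% did. In limma 0 of the 9 passed, where 0% of all genes did, and 2, Nr1d2 and Tef, had an unadjusted p under 0.05, where 6.15% did. That count of 0 also stood in all 15 alternative fits. The median of the 9 was -0.55, against -0.0031 over all genes, and it turned to 0.06 without the first ob/ob array. It was -0.94 without the second ob/ob array and -0.15 without the first lean array. The median in 16-week ob/ob islets was -0.74, against -0.03 over all genes. The plot of log2 changes sets the 4 comparisons side by side.

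**Figure D3:**
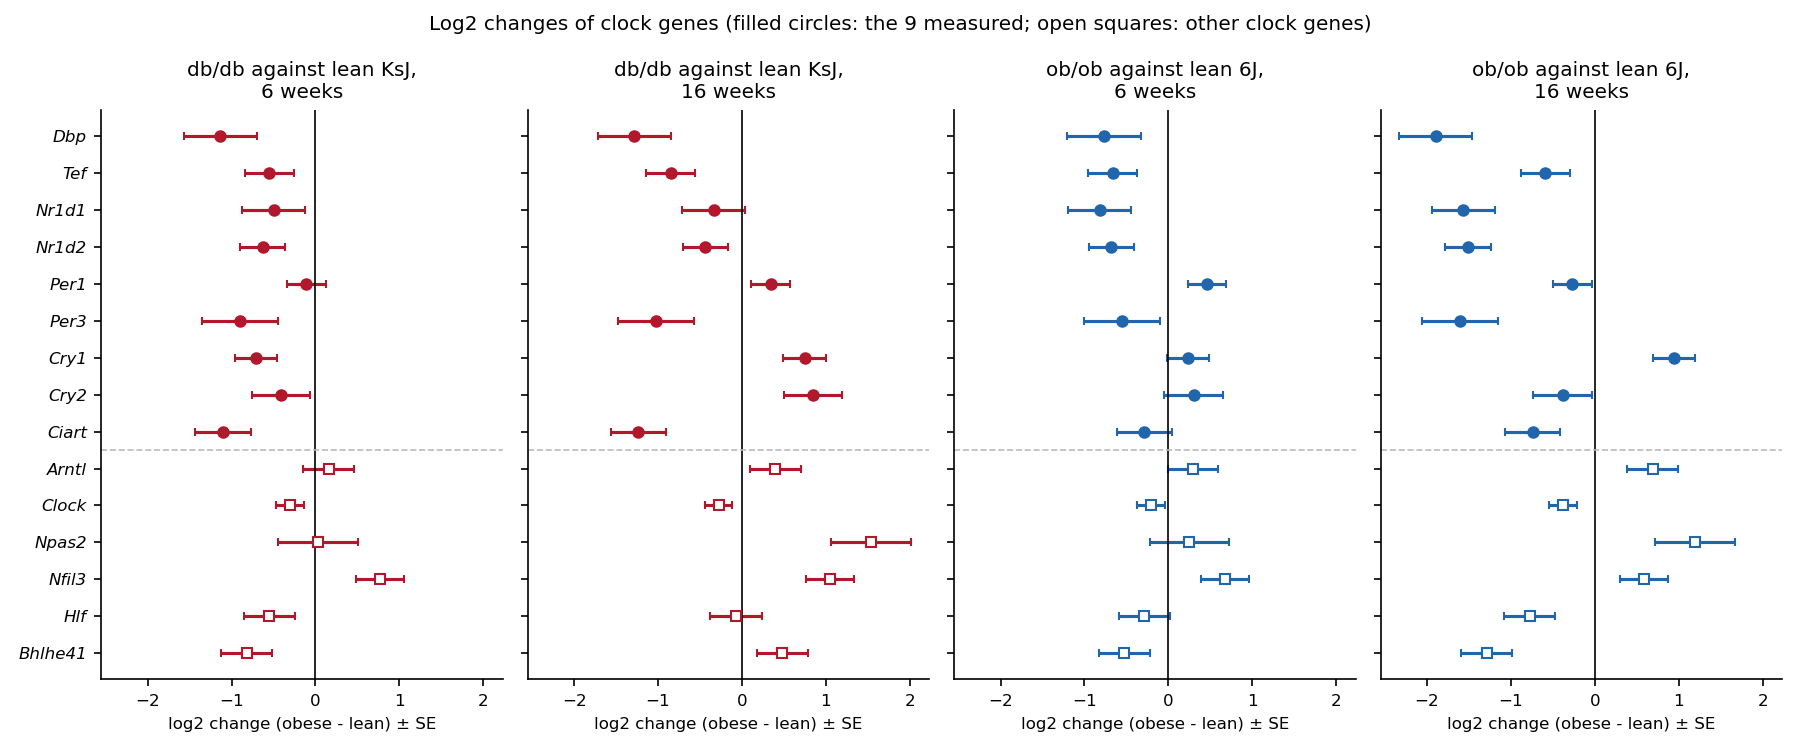
Log2 change of each gene, obese minus lean (horizontal axis), with SE bars from limma, in 4 panels by model and age, with filled circles for the 9 measured clock genes and open squares for 6 other clock genes. In 16-week ob/ob islets Dbp lies at -1.90 and Cry1 at 0.94, and Nfil3 lies above 0 in all 4 panels.

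The difference between the models and between the ages was tested as an interaction, and 0 of the 9 genes passed in any of the 4 such tests in limma. At 16 weeks the db/db effect minus the ob/ob effect was 1.08 ± 0.38 for Nr1d2 (limma adjusted p = 0.246), 1.23 ± 0.49 for Cry2 (limma adjusted p = 0.284) and 1.23 ± 0.53 for Nr1d1 (limma adjusted p = 0.306). The difference for Cry2 was 0.73 without the second lean KsJ array. These 3 genes had an unadjusted p under 0.05, where 15.6% of all genes did and 0.0129% passed. At 6 weeks the smallest p values belonged to Cry1, at -0.94 ± 0.36, Ciart, at -0.82 ± 0.47, and Per1, at -0.57 ± 0.32, all with a limma adjusted p of 1.0. Without the second 6-week lean KsJ array the differences for Ciart and Per1 were -0.39 and -0.37. Only Cry1 had an unadjusted p under 0.05, where 2.25% of all genes did and 0% passed. The effect of ob/ob at 16 weeks minus that at 6 weeks was -0.73 ± 0.32 for Per1, -0.83 ± 0.38 for Nr1d2 and 0.71 ± 0.36 for Cry1, where 0% of all genes passed, and 1 of the 9, Per1, had an unadjusted p under 0.05, where 2.77% did. Of these, Nr1d2 stood at -0.36 without the second 6-week ob/ob array and Cry1 at 0.34 without the first 16-week ob/ob array. The corresponding db/db differences after Cry1 were 1.26 ± 0.49 for Cry2 (limma adjusted p = 0.366) and 0.45 ± 0.32 for Per1 (limma adjusted p = 0.518), where 0.00644% of all genes passed, and 2 of the 9 had an unadjusted p under 0.05, where 13.1% did. Without the second 16-week lean KsJ array these were 0.75 and 0.21. The interaction comparisons share arrays with those of obese with lean islets. Uty was high on both 6-week ob/ob arrays and low on both 16-week ob/ob and both 6-week db/db arrays. Sex therefore enters the ob/ob difference between the ages and the 6-week difference between the models. Uty was also high on 1 of 2 lean KsJ arrays at each age and low on all db/db arrays. Sex thus also enters the db/db comparisons with lean islets and the 16-week difference between the models. Of the 4 comparisons of obese with lean islets, only that of 16-week ob/ob islets had Uty low on all arrays. With age in lean 6J islets, Uty was high on 1 of 2 arrays at 6 weeks and low on both at 16 weeks.

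With age, Dbp, Nr1d1 and Nr1d2 were lower on both 16-week than on both 6-week ob/ob arrays, with log2 changes of -1.43 ± 0.44, -1.01 ± 0.37 and -0.78 ± 0.27, each with a limma adjusted p of 0.999. Without the second 6-week ob/ob array they were -0.70, -0.37 and -0.31. Per1 was lower too, so that 4 of 9 genes lay apart below, where 19.4% of all genes did, and 1, Cry1, lay apart above, where 16.9% did. Of the 9, 4 had an unadjusted p under 0.05, where 3.9% of all genes did, and 0 passed, where 0% of all genes did. Uty was at 7.25 and 7.61 on the 6-week and at 2.21 and 2.33 on the 16-week ob/ob arrays. Age and sex therefore cannot be told apart in this comparison. In db/db islets Cry1 was higher at 16 weeks by 0.90 ± 0.25 (limma adjusted p = 0.363), and Tef and Dbp were lower with log2 changes of -0.51 ± 0.29 and -0.77 ± 0.44 (limma adjusted p = 0.758 for both), and Dbp stood at -0.30 without the first 16-week db/db array. In that comparison 4 of 9 lay apart below, where 21.2% of all genes did, 2 lay apart above, where 18.2% did, and 0 passed, where 0.0644% did. Only Cry1 had an unadjusted p under 0.05 there, where 7.61% of all genes did. In lean KsJ islets the log2 change to 16 weeks was -0.57 ± 0.23 for Per1 (limma adjusted p = 0.153), -0.56 ± 0.25 for Cry1 (limma adjusted p = 0.188) and -0.77 ± 0.35 for Cry2 (limma adjusted p = 0.189), while the median of all genes was -0.26. Without the second 16-week lean KsJ array, the one with the highest acinar markers, Cry2 stood at -0.27 and Per1 at -0.33. There 5 of 9 lay apart below, where 44.1% of all genes did, 0 lay apart above, where 8.03% did, and 3 had an unadjusted p under 0.05, where 26.3% did. None of the 9 passed in limma, where 0% of all genes did. Without the first 16-week lean KsJ array, 2 of the 9 passed. In lean 6J islets the smallest p values belonged to Cry2, at 0.61 ± 0.35, Per1, at 0.32 ± 0.23, and Ciart, at 0.27 ± 0.33, each with a limma adjusted p of 1.0, and 0% of all genes passed. Per1 stood at 0.13 without the second 16-week array and Ciart at -0.02 without the second 6-week array. No clock gene had an unadjusted p under 0.05 there, where 2.87% of all genes did, and 2 of 9 lay apart above and 2 below, where 21.9% and 13.7% did.

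Between the lean strains, Ciart was higher in KsJ than in 6J islets by 0.89 ± 0.33 at 6 weeks (limma adjusted p = 0.635) and 0.91 ± 0.33 at 16 weeks (limma adjusted p = 0.110), with no overlap at either age, the first being 0.47 without the second lean KsJ array. Per1 was higher in KsJ by 0.66 ± 0.23 (limma adjusted p = 0.587) and Per3 by 0.74 ± 0.46 (limma adjusted p = 0.850) at 6 weeks, where 4 of 9 lay apart above, as 26.2% of all genes did, and 1 below, as 17.8% did. Per3 stood at 0.34 without the second lean 6J array. At 16 weeks Cry2 and Nr1d1 were lower in KsJ, with log2 changes of -1.08 ± 0.35 (limma adjusted p = 0.0859) and -0.70 ± 0.37 (limma adjusted p = 0.226), where 3 of 9 lay apart below, as 44.3% of all genes did, and 1 above, as 11.2% did. Without the second lean KsJ array the change of Cry2 was -0.58. In limma 0 of the 9 genes passed at either age, where 0.258% of all genes passed at 6 weeks and 4.12% at 16 weeks. At each age 2 of the 9 had an unadjusted p under 0.05, where 6.65% of all genes did at 6 weeks and 29.5% at 16 weeks. The sample titles carry a code that differs between the strains on every array, so strain cannot be told apart from what that code stands for.

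Of 17 other clock genes, 14 had a cluster of their own, and in limma 0 of them passed in any of the 4 comparisons of obese with lean islets. The number with an unadjusted p under 0.05 was 2 in 6-week db/db, 6 in 16-week db/db, 1 in 6-week ob/ob and 8 in 16-week ob/ob islets, where 8.52%, 24.5%, 6.15% and 16.6% of all genes had one. In the same order, 4, 3, 3 and 9 lay lower on both obese arrays, where 27.9%, 10.4%, 16.8% and 33.3% of all genes did. Higher on both obese arrays were 1, 6, 2 and 4, where 21.9%, 32.8%, 19.9% and 28.2% of all genes were. In alternative limma fits at most 6 passed in 16-week db/db and at most 9 in 16-week ob/ob islets, the 6 without the first lean KsJ array, where 4687 of all 15526 genes passed, and the 9 with array weights, where 2969 did. Nfil3, which encodes the D-box repressor, was higher on both obese arrays in all 4. It read 7.25 and 7.30 in 6-week db/db islets, against 6.43 and 6.59 in lean KsJ islets, and 7.25 and 7.07 in 16-week db/db islets, against 6.69 and 5.53 in lean KsJ islets. It read 7.07 and 7.09 in 6-week ob/ob islets, against 6.33 and 6.47 in lean 6J islets, and 7.46 and 7.26 in 16-week ob/ob islets, against 6.76 and 6.78 in lean 6J islets. The log2 changes in db/db islets were 0.77 ± 0.29 at 6 weeks (limma adjusted p = 0.540) and 1.05 ± 0.29 at 16 weeks (limma adjusted p = 0.0569), the second being 0.47 without the second lean array and 1.63 without the first. The changes in ob/ob islets were 0.68 ± 0.29 (limma adjusted p = 0.791) and 0.59 ± 0.29 (limma adjusted p = 0.338).

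Arntl and Npas2, of the activating arm of the loop, lay higher on all 16-week obese arrays of the larger table than on their lean arrays. In the smaller table Arntl lay lower and Npas2 higher on the db/db array. Arntl read 8.45 and 8.26 in 16-week ob/ob islets, against 7.74 and 7.60 in lean 6J islets, a log2 change of 0.69 ± 0.30 (limma adjusted p = 0.285) with no overlap. Npas2, the partner that can replace CLOCK, read 7.81 and 7.70 in 16-week ob/ob islets, against 6.70 and 6.42 in lean 6J islets, and 6.41 and 7.25 in 16-week db/db islets, against 5.67 and 4.91 in lean KsJ islets. Neither pair of groups overlapped, and the log2 changes were 1.20 ± 0.47 (limma adjusted p = 0.243) and 1.54 ± 0.47 (limma adjusted p = 0.0828), the second being 0.74 without the 3 arrays that stood apart. Arntl also lay higher in 16-week db/db islets, by 0.40 ± 0.30 (limma adjusted p = 0.440), by 0.14 after quantile normalization, or by 0.23 without the first lean array. Clock itself was 10.38 and 10.39 in 16-week ob/ob islets, against 10.82 and 10.72 in lean 6J islets, a log2 change of -0.38 ± 0.16 (limma adjusted p = 0.277).

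Bhlhe41, an E-box repressor, was lower in 16-week ob/ob islets, with a mean of 6.69 ± 0.06 (SD, n = 2), against 7.98 ± 0.03 in lean 6J islets and no overlap, a log2 change of -1.29 ± 0.30 (limma adjusted p = 0.0920). It was also lower in 6-week db/db islets, at 6.87 and 6.92, against 7.62 and 7.81 in lean KsJ islets (log2 change -0.82 ± 0.30, limma adjusted p = 0.539). Hlf, the third D-box activator, lay lower in the same comparisons, with log2 changes of -0.78 ± 0.30 (limma adjusted p = 0.239) and -0.55 ± 0.30 (limma adjusted p = 0.648), the second being -0.35 without the first db/db array. Among the regulators of repressor stability, Csnk1e, a PER kinase, had a log2 change of 0.40 ± 0.20 in 16-week db/db (limma adjusted p = 0.238) and -0.46 ± 0.20 in 16-week ob/ob islets (limma adjusted p = 0.276). Fbxl21, an F-box protein that acts on CRY, stood at 0.85 ± 0.26 in 16-week db/db islets (limma adjusted p = 0.0805), -0.44 ± 0.26 in 6-week ob/ob islets (limma adjusted p = 0.799) and -0.30 ± 0.26 in 16-week ob/ob islets (limma adjusted p = 0.610). Btrc, an F-box protein that acts on PER, stood at -0.32 ± 0.26 in 6-week (limma adjusted p = 0.848) and -0.44 ± 0.26 in 16-week ob/ob islets (limma adjusted p = 0.431). None of these groups overlapped, which was the condition for giving these changes. The 16-week db/db change of Fbxl21 was 0.42 without the second lean KsJ array, its 16-week ob/ob change was -0.17 without the second lean 6J array, and the 6-week change of Btrc was -0.14 without the first ob/ob array.

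Bhlhe40, the relative of Bhlhe41, had a log2 change of 0.99 ± 0.43 in 16-week db/db (limma adjusted p = 0.185), -0.60 ± 0.43 in 6-week ob/ob (limma adjusted p = 0.819) and -0.78 ± 0.43 in 16-week ob/ob islets (limma adjusted p = 0.402). Timeless, better known for its role at replication forks in mammals, stood at -0.90 ± 0.30 in 16-week db/db (limma adjusted p = 0.0992) and 0.80 ± 0.30 in 16-week ob/ob islets (limma adjusted p = 0.219). Both genes lay on opposite sides of their lean arrays in the 2 models at 16 weeks. In 16-week db/db islets Bhlhe40 stood at 0.29 without the second lean array and Timeless at -0.44 without the second db/db array. The ROR genes, whose products compete with REV-ERB at its element, lay apart in 1 comparison each. Rorb stood at -0.60 ± 0.21 in 16-week db/db islets (limma adjusted p = 0.116), or -0.34 without the second lean array, and averaged 3.83 in 16-week ob/ob islets, against 3.88 in lean 6J islets. Rora stood at -0.44 ± 0.22 in 16-week ob/ob islets (limma adjusted p = 0.345) and averaged 6.87 in 16-week db/db islets, against 6.90 in lean KsJ islets. Arntl2, the relative of Arntl, stood at -0.49 ± 0.22 in 16-week ob/ob islets (limma adjusted p = 0.297), and Clock at -0.30 ± 0.16 in 6-week db/db islets (limma adjusted p = 0.645). Over the 14 genes the median change was -0.03 in 6-week db/db, 0.18 in 16-week db/db, -0.07 in 6-week ob/ob and -0.41 in 16-week ob/ob islets.

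Of the 8 measured genes of a list of clock outputs that cycle in many tissues, 1 passed, in 16-week db/db islets, where 5.8% of all genes passed. Klf10, a clock-regulated Kruppel-like factor, rose in 16-week db/db islets, at 7.65 and 8.42, against 6.96 and 6.07 in lean KsJ islets, with a log2 change of 1.52 ± 0.33 (limma adjusted p = 0.0293). That call ended with quantile normalization (limma adjusted p = 0.0746), with array weights (limma adjusted p = 0.354) and with the 2 groups fitted alone (limma adjusted p = 0.465). It also ended without the second lean array (log2 change 1.08, limma adjusted p = 0.116), without either db/db array (limma adjusted p = 0.0553 and 0.149) and without the 3 arrays that stood apart in acinar or enterocyte markers (log2 change 0.69, limma adjusted p = 0.276). Klf10 lay lower in 16-week ob/ob islets, which read 6.16 and 6.70, than in lean 6J islets, which read 7.31 and 6.95 (log2 change -0.70 ± 0.33, limma adjusted p = 0.322), and at 6 weeks its change in ob/ob islets was -0.36 ± 0.33 (limma adjusted p = 0.867). These were -0.43 without the first 16-week and -0.22 without the second 6-week ob/ob array. Nampt, which makes a precursor of NAD, was lower on both obese arrays in 6-week db/db islets (log2 change -0.73 ± 0.27, limma adjusted p = 0.541) and in ob/ob islets at 6 weeks (-0.51 ± 0.27, limma adjusted p = 0.791) and 16 weeks (-0.49 ± 0.27, limma adjusted p = 0.411), the last 2 being -0.23 and -0.25 without the first ob/ob array of that age. Tspan4 was higher in 6-week db/db (0.67 ± 0.26, limma adjusted p = 0.556) and 16-week ob/ob islets (0.76 ± 0.26, limma adjusted p = 0.186), and Lonrf3 was lower in 16-week db/db islets (-0.52 ± 0.23, limma adjusted p = 0.199). The 6-week change of Tspan4 was 0.32 without the first db/db array, and that of Lonrf3 was -0.26 without the second lean array.

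Arrays of the same group also differed in their clock genes. In 6-week ob/ob islets the second array exceeded the first by 1.45 for Dbp, 1.28 for Nr1d1, 1.26 for Per3, 0.94 for Nr1d2 and 0.70 for Ciart, and lay below it by a difference of -0.70 for Arntl and -0.94 for Npas2. The array with the higher Dbp was also the one with the higher Hlf in 8 of 8 groups, and with the higher Nr1d1, Nr1d2, Ciart and Cry2 in 7 of 8 groups each. For Arntl, Npas2 and Clock this held in 2 of 8 groups each, for Cry1 in 3, and for Per1, Per3 and Tef in 5. Over all genes tested the median was 4 of 8 groups, with 3.3% of genes at 7 or 8 and 2.03% at 0 or 1. The share of all genes at 2 was not counted. Dbp itself differed by only 0.05 in 6-week db/db, 0.13 in 16-week lean KsJ and 0.11 in 16-week ob/ob islets. The order of the arrays in those groups rests on these small gaps. These within-group differences need no contrast of genotypes, and the time of collection of each array is not in the labels.

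**Figure D4:**
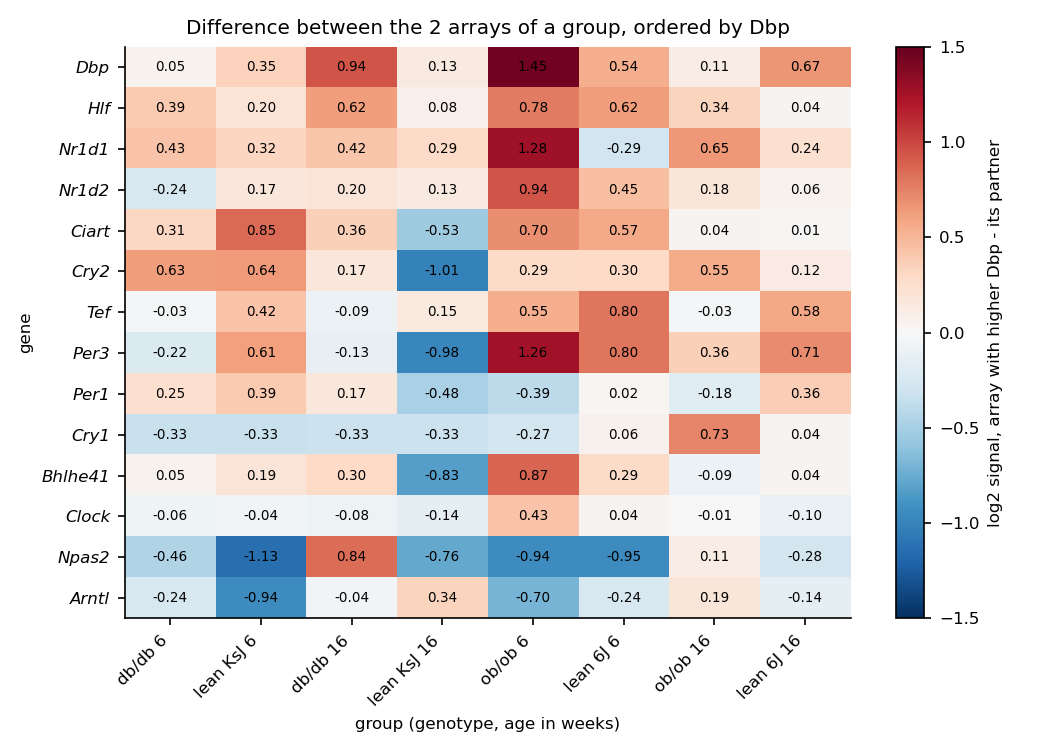
Difference in log2 signal between the 2 arrays of each group, taken as the array with higher Dbp minus its partner (colour and printed value), with genes in rows and groups of genotype and age in weeks in columns. Hlf is above 0 in all 8 groups, and Arntl and Npas2 are above 0 in 2 of 8 each.

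Lists of genes that answer to handling, hormones and temperature were read on the same arrays. In limma 0 genes of 11 immediate-early, 7 glucocorticoid-induced and 7 temperature-responsive genes passed in any of the 4 comparisons of obese with lean islets. In 16-week ob/ob islets 2, 2 and 0 of them had an unadjusted p under 0.05, where 16.6% of all genes did, and with those 2 groups fitted alone 5, 3 and 1 passed, where 1293 of all 15526 genes did. Their median changes ranged over -0.59 to 0.46, -0.35 to 0.27 and -0.49 to 0.08 across the 4 comparisons. In 6-week ob/ob islets 7 of 11 immediate-early genes lay lower on both arrays and 0 higher, where 16.8% and 19.9% of all genes did. In 16-week ob/ob islets 7 immediate-early, 2 glucocorticoid-induced and 6 temperature-responsive genes lay lower, where 33.3% of genes did. There 1, 1 and 0 lay higher, where 28.2% did. In 6-week db/db islets all 11 immediate-early genes changed by above 0, where 53% of all genes were below 0. Of these 1 lay higher on both arrays, where 21.9% did. Fos, an immediate-early gene, differed between arrays of a group by more than any clock gene in KsJ mice, with the second array minus the first at 2.37 in 6-week db/db, 4.62 in 6-week lean KsJ, -2.07 in 16-week db/db and -2.72 in 16-week lean KsJ islets. The part of these lists in the clock results was not tested.

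The smaller table had 1 array a group and allowed no test. Its db/db array read 7.55 for Dbp, 4.50 for Per3, 4.78 for Ciart, 4.46 for Tef and 8.46 for Nr1d1, and its lean KsJ array read 7.90 for Dbp, 4.90 for Per3, 5.31 for Ciart, 4.88 for Tef and 8.52 for Nr1d1. These were the 5 of 9 genes with a difference below 0, where 41.7% of all genes had one. Its db/db array read 8.52 for Per1, 7.73 for Cry2, 7.37 for Nr1d2 and 5.65 for Cry1, and its lean KsJ array read 7.55 for Per1, 6.79 for Cry2, 7.07 for Nr1d2 and 5.37 for Cry1. The median difference of the 9 was -0.06, against 0.09 over all genes. The acinar marker mean was 12.48 on the db/db array, against 13.18 on the lean KsJ array, and the enterocyte mean was 9.79 on the db/db array, against 4.43 on the lean KsJ array.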

How the data were processed

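Islet RNA was measured on Affymetrix arrays, 16 in a larger and 2 in a smaller deposited table of log2 values, 41034 transcript clusters each. Per the submitters' processing notes, the tools were MAS5, RMA and Partek, with versions, roles and array background steps not given in the sources used here. Normalization across the 2 tables is unknown, so no level was set across them.

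Clusters were named through GEO's platform annotation, with symbols updated to RefSeq by gene ID: 23521 clusters had 1 gene, 1814 had several and 15699 had no listed gene. Each gene was read from its cluster of highest mean, and genes in the lowest 30% of means (log2 under 2.99) were left out of the tests. The 8 groups of 2 arrays were fitted together in limma 3.58.1 (R 4.3.3) with 1 mean per group, 8 residual degrees of freedom and empirical Bayes with 3.15 prior degrees of freedom, and p-values were adjusted by Benjamini-Hochberg over 15526 genes in each of 14 comparisons, at 0.05. The fit was tested on simulated data. Figures used Python 3.11.15 and matplotlib 3.10.9.

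All clock genes were described by array. A change with its SE was printed for genes whose groups did not overlap with a log2 change of at least 0.3, or that passed, and for the 3 smallest p-values in age, strain and interaction comparisons. The rule was kept for the clock genes and clock outputs, while immediate-early, glucocorticoid and temperature lists are given by counts and medians, and Fos was named after its values were seen. The genes and lists were chosen with earlier results of these data known. Alternatives were the filter on dim genes, quantile normalization, median centring, a trended robust prior, array weights, the mean over clusters, marker and Xist covariates, the compared groups alone, both tables joined, and each array left out. The number of arrays limits the precision.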

Additional observations from a re-analysis of the deposited data

Results flagged for a closer look

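Cry1 and Cry2 had obesity effects of opposite sign whose arrays did not overlap, between the models or between the ages, and in limma none of the 4 differences passed. For Cry1 at 6 weeks, both db/db arrays lay below and both ob/ob arrays above their lean arrays, and the db/db effect minus the ob/ob effect was -0.94 ± 0.36 (unadjusted p = 0.0230, limma adjusted p = 1.0). For Cry1 in KsJ mice, the db/db arrays lay below the lean ones at 6 weeks and above them at 16 weeks, and the effect at 6 weeks minus that at 16 weeks was -1.46 (limma adjusted p = 0.361). For Cry2 at 16 weeks, the db/db arrays lay above and the ob/ob arrays below their lean arrays, with a difference between the effects of 1.23 ± 0.49 (limma adjusted p = 0.284), or 0.73 without the second lean KsJ array. For Cry2 in 6J mice, the ob/ob arrays lay above the lean ones at 6 weeks and below them at 16 weeks, and the effect at 6 weeks minus that at 16 weeks was 0.69 (limma adjusted p = 1.0). The 6-week groups barely parted, with the lower ob/ob array at 9.08 and the higher lean array at 9.07. The 6-week change was 0.15 without the second lean array, and the 16-week change was -0.11 without the second ob/ob array. The 6-week ob/ob change of Cry1 was 0.24, or 0.10 without the first ob/ob array.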

How the results depend on the processing

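No clock gene reversed direction under any alternative, among results with a change printed for obese against lean islets. Those results were picked for groups that did not overlap, so leaving out 1 array could not reverse them. Where groups overlapped, some did reverse. Per1 in 6-week db/db islets went from -0.11 to 0.09 without the second lean KsJ array. In 6-week ob/ob islets without the first ob/ob array, Per3 went from -0.55 to 0.08 and Ciart from -0.29 to 0.06. In 16-week db/db against lean KsJ islets, 1 clock gene passed with the filter at the 50th percentile, quantile normalization, median centring, the trended robust prior or both tables joined, and leaving out 1 array gave 0 to 2, the 2 being Cry1 and Cry2 without the first lean KsJ array. Median centring placed the median of all genes at 0.37 there, against 0.18 as deposited. In 16-week ob/ob against lean 6J islets, 1 passed with the 50th percentile filter or the trended robust prior and 5 with array weights or the groups alone, while 0 passed without any 1 array. Without the first 16-week lean KsJ array, 2 passed in lean KsJ islets with age and in the db/db effect at 16 minus 6 weeks, and 1 in the difference between the models and in that between lean strains at 16 weeks. In those 4 comparisons leaving out 1 array otherwise gave 0, so the ranges were 0 to 2 and 0 to 1. The first 16-week lean KsJ array was the only 16-week array with high Uty, and the cause was not tested. The counts over all genes ranged over 0 to 4687 in 16-week db/db (900 as reported), 0 to 2969 in 16-week ob/ob (11), 0 to 28 in 6-week db/db (4) and 0 to 321 in 6-week ob/ob islets (0). Leaving out the 3 arrays with high acinar or enterocyte markers was chosen after seeing the data and left 0 clock genes passing. No paired analysis was possible because the labels give no replicate numbers, and the arrays were numbered in accession order.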

Other observations

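Among the 14310 genes tested that are neither one of the 9 clock genes nor named only by a Gm number or a Rik clone, those whose log2 signal followed the mean standardized profile of the 9 clock genes most closely over the 16 arrays were Mreg (Pearson r = 0.92), Prkx (0.92), Washc2 (0.91), Kif3a (0.91), Kdm4a (0.89) and Bclaf1 (0.89). These r values are descriptions over arrays that share groups, strain and marker levels, and the genes were picked as the highest of all. Hlf ranked 37 by the same measure (r = 0.83), and Arntl ranked 14249 of 14310 (r = -0.75). After removal of group means the closest were Cbfa2t2 (r = 0.91), Tbc1d1 (0.91), Ttll4 (0.90), Samd15 (0.90), Col9a3 (0.90) and Kif3a (0.89). Arntl stood at -0.79 there and ranked 14277. With 2 arrays a group the values left mirror each other, so these r rest on 8 differences, 1 per group. Of the 9 clock genes, Per1 (r = 0.24) and Cry1 (-0.02) followed that profile least. In the smaller table Nfil3 and Arntl were lower on the db/db than on the lean KsJ array, by differences of -0.50 and -0.68, and Nr1d2, Rorb and Lonrf3 were higher, by 0.30, 0.31 and 0.06, which is opposite in sign to the larger table at 16 weeks. The other 13 of the 18 clock genes and clock outputs with a 16-week db/db change given above had the same sign in both tables. The share of all genes with the same sign in both tables was not counted, so no baseline stands beside that number.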
